A study of Homo sapiens with 6 samples.

Results

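The calcium pumps are the 9 human P-type ATPases that move calcium out of the cytosol: 3 SERCA pumps of the endoplasmic reticulum (ATP2A1, ATP2A2 and ATP2A3), 4 PMCA pumps of the plasma membrane (ATP2B1 to ATP2B4) and 2 SPCA pumps of the Golgi (ATP2C1 and ATP2C2). They were taken by symbol from a fixed list of 9 names, and all 9 were found among the 60483 gene identifiers of the count tables. They were proposed with their levels in this comparison in view, so their differences between the groups are given as a description, without a test. In HepG2, an established line from a human liver cancer, 3 libraries were made after transfection with a control siRNA and 3 after an siRNA against FTO, the enzyme that removes methyl groups from N6-methyladenosine in RNA. All cells carry the same passage range, were grown in the same medium with fetal bovine serum and were transfected, so no untransfected group stands beside them. No siRNA sequence, dose or harvest time was given in the labels used. Since the labels do not tell whether replicate libraries are separate cultures, a p-value here covers only the spread between the libraries sequenced, which could be technical.

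A resting cell keeps its cytosolic calcium far below that outside and inside its stores. SERCA pumps refill the endoplasmic reticulum, where many chaperones need calcium to fold secreted proteins, a main task of liver cells. PMCA pumps expel calcium through the plasma membrane and are switched on by calmodulin, and SPCA pumps load the Golgi with calcium and manganese. Each pump uses ATP and forms a phosphorylated intermediate.

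The total was between 15713279 and 18390953 counts per library, so that 3 counts in a library correspond to 0.163 to 0.191 CPM (counts scaled to an equal library size), a floor that covers counting error only. FTO itself went from 39.2 ± 1.47 to 10.3 ± 4.69 CPM (mean ± SD, n = 3 per group), with an adjusted p of 0.00932 by the quasi-likelihood test of edgeR. It was lowest in FTO siRNA 3, at 5.21 CPM. That library also lay apart from FTO siRNA 1 and 2 on the principal component with 25.7% of the variance. All 10 hepatocyte markers were counted in every library, with a summed level of 23163 to 33277 CPM in the controls and 16063 to 28319 CPM after FTO siRNA. Of these edgeR called 0, with 1 higher and 1 lower at an unadjusted p below 0.05, and DESeq2 and limma-voom each called 1 lower. APOB, with 8180, 7419 and 5071 CPM in the controls and 1405, 2381 and 4062 CPM after FTO siRNA, and HNF4A had groups that did not overlap. Of all genes tested, 17.4% were lower without overlap. APOA2 went the other way, from 194 ± 75.9 to 338 ± 92.7 CPM, with overlapping groups. Of 15025 genes tested, 7.53% were higher and 3.83% lower after FTO siRNA at an adjusted p below 0.05.

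The promoter of ATP2A2 is shown beside those of chaperones and calcium-binding proteins of the endoplasmic reticulum because they hold a spaced motif in common. The motif is known as the endoplasmic reticulum stress response element, which NF-Y and ATF6 bind when misfolded proteins build up. It was searched on both strands of the RefSeq promoter windows (GRCh38.p14, 250 bases before to 50 after each start) as CCAAT, any 9 bases and CCAC, so that it contains the shorter motif CCAAT, which alone is in 34.6% of promoters. The spaced form was found in 0.316% of 35116 promoters, and a stricter form that ends in CCACG in 0.0769%. Counted by gene, with all promoters of a gene pooled, the shares were 0.381% and 0.0916% of 27305 genes. The counts that follow are by gene. Of the 7 pumps with a promoter in the table, ATP2A2 held the spaced form and none held the stricter one. Of 13 luminal calcium-binding genes with a promoter, 5 held both forms. ATP2A3 and ATP2C2 are not in the table. Capitals mark CCAAT, and CCAC with the base after it, and each line reads 5′ to 3′ on the strand of the match.
ATP2A2, chr12:110281180-110281206, plus strand: tcggCCAATgagcggcgtCCACAtgcc
HSPA5, chr9:125241387-125241413, minus strand: ttcaCCAATcggcggcctCCACGacgg
HSP90B1, chr12:103930212-103930238, plus strand: ctgaCCAATcggaaggagCCACGcttc
HSP90B1, chr12:103930317-103930343, minus strand: cccaCCAATcgcgccgcaCCACGcacc
PDIA6, chr2:10812849-10812875, minus strand: cggaCCAATgagccgcagCCACGgctt
CANX, chr5:179698774-179698800, plus strand: ccggCCAATcttcacactCCACGaaga
CALR, chr19:12938380-12938406, minus strand: ccgaCCAATgatggtcgaCCACGcgtg
The match of ATP2A2 begins at position -63 from its RefSeq start. A match describes these letters and does not show that a factor binds there.

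Per kilobase of exons, the control cells carried mostly ATP2A2, ATP2B1, ATP2C1 and ATP2B2. ATP2A2 (SERCA2, the housekeeping pump of the endoplasmic reticulum) stood at 45.9 ± 2.11 CPM per kb and ATP2B1 (PMCA1, the housekeeping pump of the plasma membrane) at 37.5 ± 2.98, with no overlap between their libraries. ATP2C1 (SPCA1, the widespread Golgi pump) followed at 14.6 ± 0.787 CPM per kb. ATP2B2 (PMCA2, known from neurons, inner ear hair cells and the lactating breast) had 10.0 ± 4.07. Those neighbours did not differ beyond their spread, since ATP2B2 was above ATP2C1 in control 1 (14.6 against 13.8 CPM per kb) and below it in controls 2 and 3. ATP2B4 (PMCA4) had 1.87 ± 0.267, ATP2A1 (SERCA1, the fast muscle pump) 0.387 ± 0.137 and ATP2A3 (SERCA3, known from blood cells and some epithelia) 0.164 ± 0.0443 CPM per kb. Scaled by the longest coding transcript the order was the same, although ATP2A2 then came to 142 CPM per kb, because its annotated exons together are 13745 bases long and that transcript 4453 bases.

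After FTO siRNA the order changed in its lower part. ATP2A2 (42.1 ± 3.69 CPM per kb), ATP2B1 (39.8 ± 11) and ATP2C1 (13.7 ± 0.943) stayed in the first 3 places. By exon length ATP2B1 was above ATP2A2 in FTO siRNA 3 (52.3 against 42.7). That crossing depends on the length used. ATP2A2 had more CPM there (587 against 496) and has the shorter longest coding transcript (4453 against 7032 bases). ATP2B4 came next at 2.31 ± 0.362 and ATP2B2 at 1.91 ± 1.02 CPM per kb, and their libraries overlapped. ATP2A3 at 0.807 ± 0.575 then stood before ATP2A1 at 0.54 ± 0.0837 CPM per kb, also with overlapping libraries.

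Of the 9 pumps, 7 had enough counts to be tested with all genes. Their values chose them, so the counts that follow are read only as a description. At the threshold used for all genes 1 of the 7 was higher, where 7.53% of all genes were, and 1 was lower, where 3.83% were. The groups did not overlap for the same number, 1 higher and 1 lower, against 19.2% and 17.4% of all genes tested (36.5% in either direction). The median log2 fold change of the 7 was 0.09, and that of all genes tested 0.04.

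ATP2B2 (ENSG00000157087.15, chromosome 3) was the pump with much lower counts after FTO siRNA. Controls 1, 2 and 3 had 151, 89.4 and 70.0 CPM, and the FTO siRNA libraries 1, 2 and 3 had 11.5, 16.1 and 31.7 CPM. The highest FTO siRNA library thus lay below the lowest control, and each group spread more than 2-fold. The mean went from 103 ± 42 to 19.8 ± 10.6 CPM, a log2 difference of -2.38 ± 0.41 (standard error) or a level 5.21-fold lower. By this difference it was number 45 of 15025 genes from the most lowered end. FTO siRNA 3, with the least FTO, had the most ATP2B2 of its group. Leaving out each library in turn gave log2 differences from -2.93 to -2.03.

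Markers of nerve cells, where PMCA2 is best known, were measured beside it. Of 8 such markers RBFOX3, STMN2, SYN1 and NEFL were at 0 in all controls. The summed level of the 8 was 78.0 to 102 CPM in the controls and 84.7 to 171 CPM after FTO siRNA. Most of that sum was MAP2. SNAP25 had 11, 13.6 and 9.12 CPM in the controls and 7.62, 6.79 and 3.58 CPM after FTO siRNA, groups that did not overlap (edgeR adjusted p = 0.0874). GAP43 went the other way, with 0.317, 0.487 and 0.121 against 1.05, 0.741 and 1.02 CPM, also without overlap (edgeR adjusted p = 0.0661). It passed the count filter only through the FTO siRNA libraries. Of all genes tested, 17.4% were lower and 19.2% higher without overlap. SYT1 and MAP2 were higher on average, with overlapping groups. Their part in the ATP2B2 level was not tested. Of the 4 tested, edgeR called 0, with 1 higher and 1 lower at an unadjusted p below 0.05, DESeq2 called 1 lower and limma-voom 0. In bulk RNA, fewer cells of a type and less RNA per cell cannot be told apart. The nearest tested genes on the chromosome, chosen by position after the pump values were seen, are GHRLOS and SEC13 on one side and SLC6A11 and ATG7 on the other. None of these 4 was called, with log2 fold changes from -0.03 to 0.13 (edgeR adjusted p from 0.598 to 0.998).

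ATP2A3 (ENSG00000074370.16, chromosome 17) was low in the controls, at 1.20, 0.792 and 1.39 CPM. After FTO siRNA it had 2.42, 4.26 and 10.0 CPM, all above the controls, with most of it in FTO siRNA 3. Summed by group, 55 counts stood against 304, and 196 of the latter were in FTO siRNA 3. The means were 1.13 ± 0.305 and 5.56 ± 3.96 CPM, a log2 difference of 2.31 ± 0.55 or a level 4.97-fold higher. Without FTO siRNA 3 the difference came to 1.53 on the log2 scale. In rank ATP2A3 was number 307 of 15025 genes from the most raised end. Its nearest tested neighbours on the chromosome, HASPIN, NCBP3, ZZEF1 and CYB5D2, likewise chosen by position afterwards, were not called, with log2 fold changes from -0.37 to 0.39 (edgeR adjusted p from 0.174 to 0.35).

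SERCA3 is a pump of leukocytes, so leukocyte markers were measured beside it. Of 15 leukocyte markers, 10 were tested and 6 rose (PTPRC, CD3D, CD2, CD74, NKG7 and ITGAM; 7.53% of all genes did), with a median log2 fold change of 2.08 against 0.04 for all genes. Of these, PTPRC, CD3D, CD2, NKG7 and ITGAM passed the count filter only through the FTO siRNA libraries, where they were high. They could enter the test only as higher genes, so the share and the median are a description. PTPRC, the pan-leukocyte marker, had 0, 0.0609 and 0.0604 CPM in the controls and 1.24, 1.24 and 1.02 CPM after FTO siRNA, with adjusted p = 0.00192 by edgeR. Its controls, with at most 1 count each, lie under the floor of 3 counts. MS4A1 was at 0 in the controls, and no marker of the list was at 0 in all libraries. The summed level of the list was 128 to 191 CPM in the controls and 184 to 214 CPM after FTO siRNA. Most of that sum was LYZ and LCP1, which were not called. In FTO siRNA 3, the library with the most ATP2A3, single markers differed in direction: PTPRC and CD74 were lowest of their group there, while ITGAM (1.55, 1.17 and 3.07 CPM), CD14 and CORO1A were highest. The part of these transcripts in the ATP2A3 level was not tested. Of the 6 platelet markers, GP9 was at 0 in all libraries and PPBP in the controls, and the sum was 1.46 to 2.44 CPM in the controls and 2.22 to 3.42 CPM after FTO siRNA. Of the 2 tested edgeR called 0, with 1 higher at an unadjusted p below 0.05, and DESeq2 and limma-voom called 0. The higher one, PF4, passed the count filter only through the FTO siRNA libraries. Of 7 fibroblast markers tested, COL1A1, COL1A2 and TAGLN rose (7.53% of all genes did) and 4 were not called (COL3A1, LUM, PDGFRA and PDGFRB). The list had a sum of 117 to 203 CPM in the controls and 277 to 613 CPM after FTO siRNA, and DCN was at 0 in the controls. Most of the difference in the sum was TAGLN, whose groups overlapped (34.3, 55.3 and 91.3 against 464, 284 and 90.0 CPM).

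**Figure D1:**
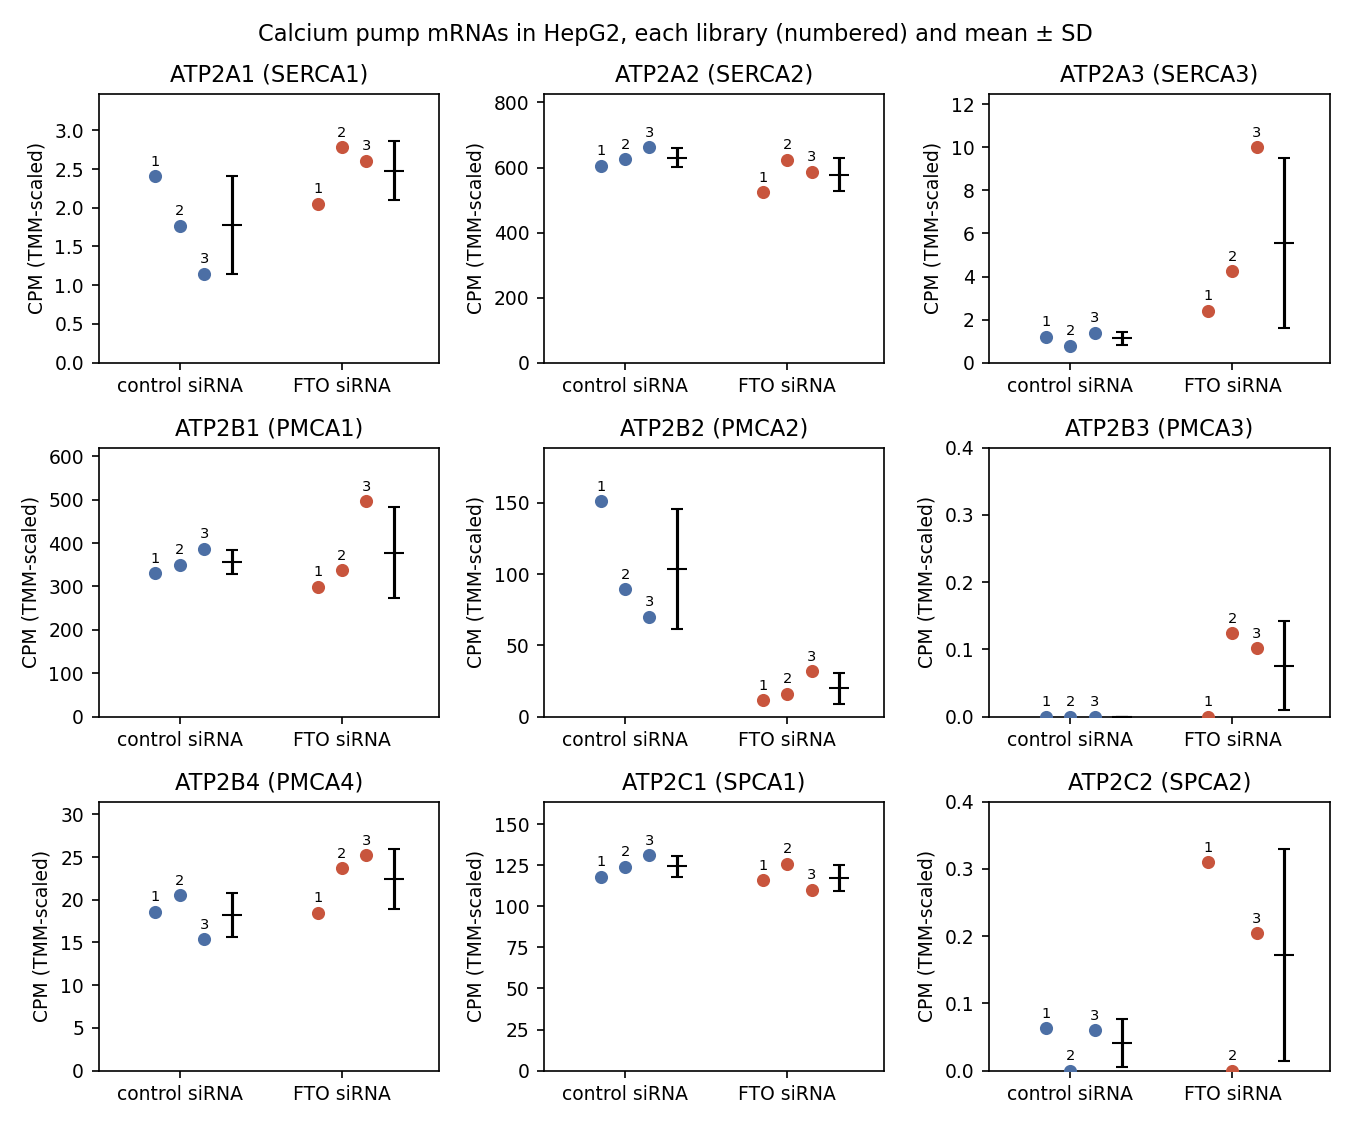
CPM (TMM-scaled, linear axes from 0) of each pump in each library, with control siRNA in blue, FTO siRNA in red, library numbers above the points and the mean ± SD of 3 libraries as a bar. ATP2B2 lies at 70.0 to 151 CPM in the controls and at 11.5 to 31.7 CPM after FTO siRNA, ATP2A3 is highest in FTO siRNA 3, and the groups of the other 7 pumps overlap.

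The remaining pumps of the endoplasmic reticulum and the Golgi had overlapping groups. ATP2A2 (chromosome 12) had 605, 625 and 662 CPM in the controls and 524, 624 and 587 CPM after FTO siRNA, a log2 difference of -0.13 ± 0.16. FTO siRNA 1 was lowest and FTO siRNA 2 lay within the range of the controls. ATP2C1 (chromosome 3) had 118, 124 and 131 CPM against 116, 126 and 110 CPM, a log2 difference of -0.09 ± 0.13. Of its exon bases 2.2% overlap ASTE1 on the other strand. ATP2A1 (chromosome 16) had 2.41, 1.77 and 1.15 CPM against 2.05, 2.78 and 2.61 CPM, a log2 difference of 0.49 ± 0.32 that rests on 86 and 129 counts. ATP2A1-AS1 and RABEP2 lie antisense to 5.36% and 1.94% of its exon bases, and no source used here says whether the counting used strand. Reads of such partners cannot be told apart without it. Of 8 muscle markers, 2 were tested beside this muscle pump. CKM rose (adjusted p = 0.00426 by edgeR) and TTN fell (adjusted p = 0.0128), where 7.53% and 3.83% of all genes did. CKM had 10 counts over the controls and passed the count filter only through the FTO siRNA libraries. It could enter the test only as a higher gene, so its rise is a description. TNNT3 was at 0 in every library and DES in the controls. The sum of the 8 was 74.3 to 95.9 CPM in the controls and 26.4 to 46.6 CPM after FTO siRNA, most of it TTN, and its part in the ATP2A1 level was not tested.

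The other plasma membrane pumps differed in their spread. ATP2B1 (chromosome 12) had 331, 350 and 387 CPM in the controls and 299, 337 and 496 CPM after FTO siRNA, so that FTO siRNA 3 was highest and FTO siRNA 1 lowest of all 6. The log2 difference was 0.09 ± 0.21 and turned to -0.19 without FTO siRNA 3. ATP2B4 (chromosome 1) had 18.6, 20.5 and 15.4 CPM against 18.5, 23.7 and 25.2 CPM, a log2 difference of 0.30 ± 0.19. ATP2B3 (PMCA3, chromosome X), a pump of the brain, had no counts in any control and 4 counts after FTO siRNA. ATP2C2 (SPCA2, chromosome 16), a pump of secretory epithelia, had 2 and 9 counts, and 26.2% of its exon bases lie antisense to ATP2C2-AS1. Both averaged at most 3 counts per library in each group, so no fold is given for them.

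Within each family, 1 pump held most of the level per length. ATP2A2 made up 98.8% ± 0.331 of the SERCA level in the controls and 96.9% ± 1.29 after FTO siRNA, and ATP2C1 made up 99.7% or more of the SPCA level in every library. The PMCA family was mixed. ATP2B2 made up 28.4%, 18.2% and 13.8% of it in the 3 controls, in order, and 3.23%, 3.93% and 5.29% after FTO siRNA. The share of ATP2B1 went from 76.1% ± 7.62 to 90.5% ± 0.729 and that of ATP2B4 from 3.80% ± 0.609 to 5.38% ± 0.85. The summed PMCA level was 51.4, 47.6 and 49.1 CPM per kb in the controls and 34.5, 39.5 and 57.9 after FTO siRNA. It was below every control in FTO siRNA 1 and 2 and above every control in FTO siRNA 3, where ATP2B1 was highest. All 9 pumps together came to 110 ± 2.55 and 101 ± 14.3 CPM per kb.

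**Figure D2:**
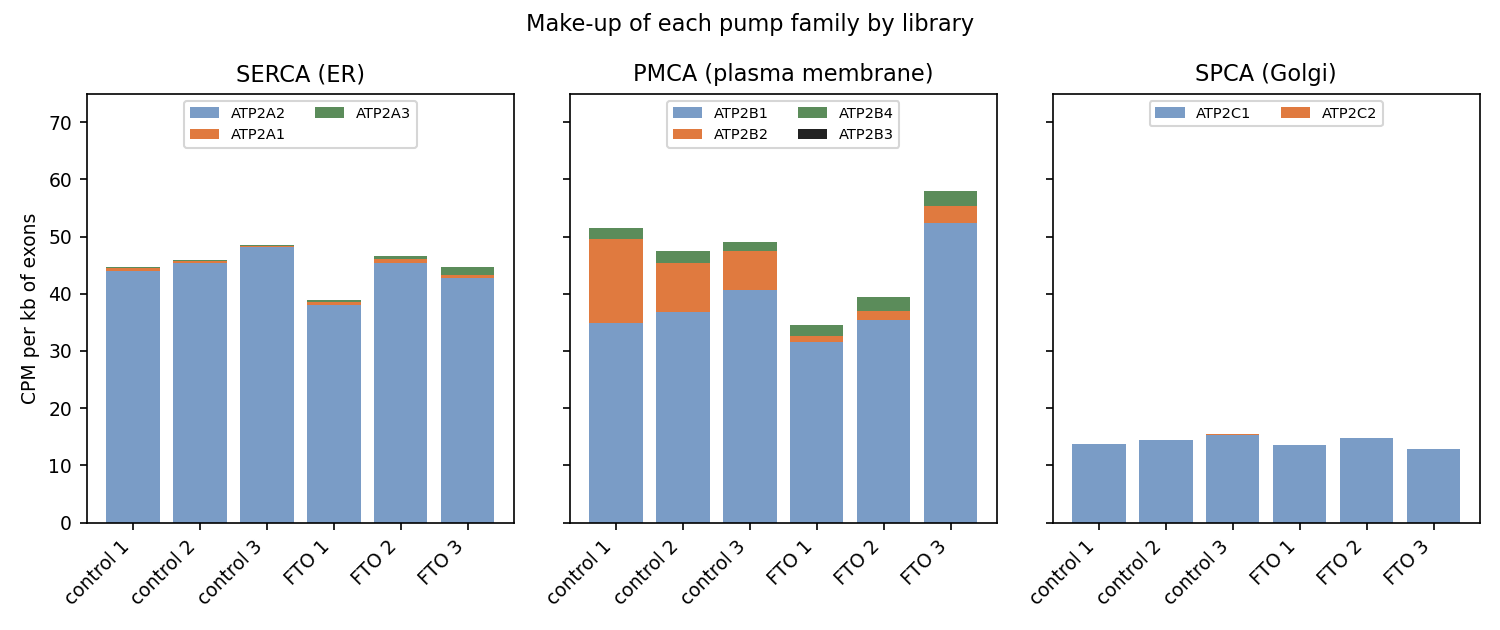
Stacked CPM per kilobase of exons of the pumps of each family, 1 bar per library. The ATP2B2 part of the PMCA bar makes up 13.8% to 28.4% in the controls and 3.23% to 5.29% after FTO siRNA, while ATP2A2 and ATP2C1 fill nearly all of the SERCA and SPCA bars.

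Some sequence features of the pump transcripts were compared without use of the counts. Of the 50-base words in the longest coding transcript of each pump (GENCODE 29), 0% occur in a transcript of another gene outside the locus, and so none is shared between pumps. The letters GGACT, the core of a common m6A consensus, were counted in the same transcripts on the transcript strand. They occurred 0.781 times per kb in ATP2B2, 1.45 in ATP2A3 and 0.449 in ATP2A2, against a median of 0.928 over 12602 tested genes with a coding transcript. The 9 pumps ranged from 0.283 per kb in ATP2A1 to 1.45 in ATP2A3. Methylation was not measured in these files.

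Genes with the most similar pattern were sought for the pumps with the largest differences, by the root-mean-square difference of mean-centred log2 CPM over 6 libraries, among 12458 genes. Near ATP2B2 were SI (0.433), the sucrase-isomaltase of the intestine, and AC126755.1 (0.438). SI had 15.5, 11.5 and 9.66 CPM in the controls and 2.54, 3.52 and 6.23 CPM after FTO siRNA, and so shared the high control 1 and the less lowered FTO siRNA 3. For ATP2A3 the nearest genes were BRINP2 (0.226), MTMR11 (0.24) and BHLHE40 (0.271). BHLHE40, a transcription factor of the clock and of hypoxia, had 66.5, 56.6 and 69.1 CPM and then 177, 195 and 417 CPM, again highest in FTO siRNA 3. These genes were picked for their likeness, so their own differences add no support.

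**Figure D3:**
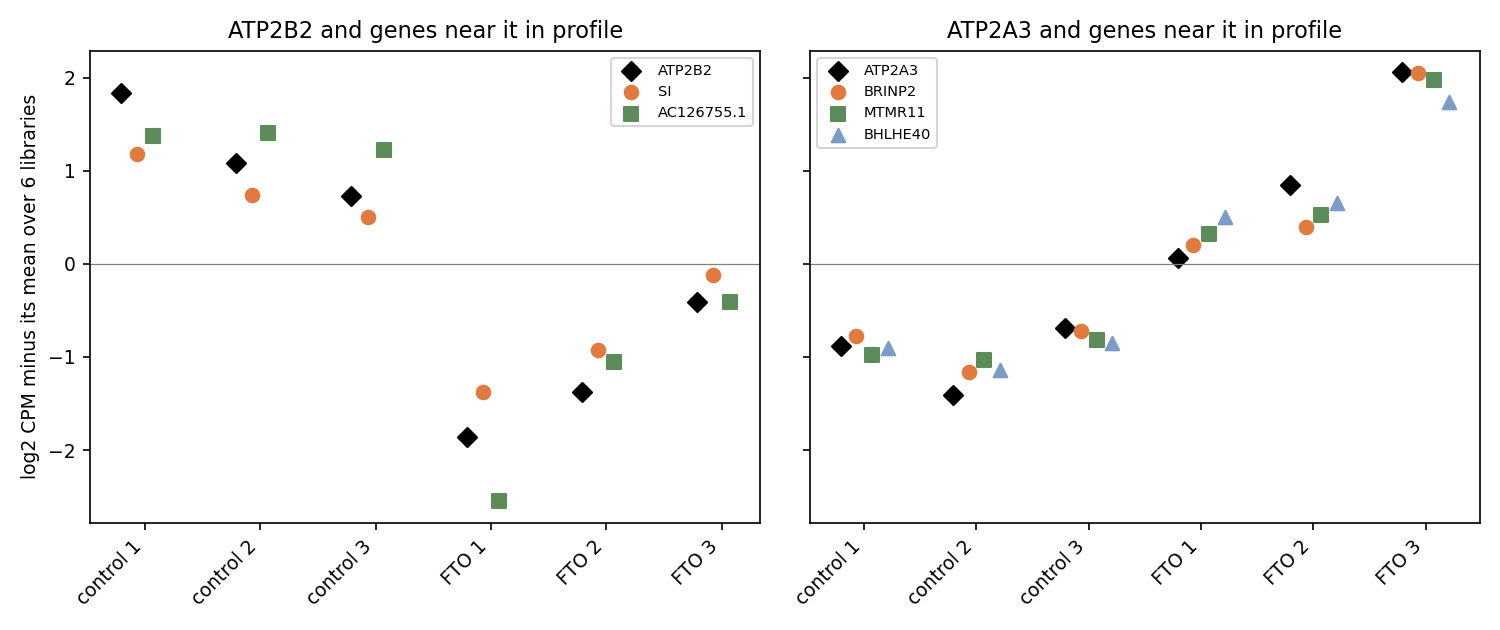
Mean-centred log2 CPM (prior count 2) in each of the 6 libraries for ATP2B2 and ATP2A3 (black diamonds) and genes near each in profile, 2 and 3 of them. ATP2B2 lies at 1.84 in control 1 and -1.86 in FTO siRNA 1, and ATP2A3 at 2.06 in FTO siRNA 3.

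The wider calcium system was read from 7 lists with 72 tested genes, pumps not included: 6 rose and 1 fell, with a median log2 fold change of 0.05 (all genes 0.04). Of all genes, 7.53% rose and 3.83% fell. Of the 6, RCAN2 and NFATC1 passed the count filter only through the FTO siRNA libraries, where they were high. They could enter the test only as higher genes, so the share that rose is a description. At an unadjusted p below 0.05 the 72 genes gave 13 higher and 10 lower, DESeq2 called 7 and 3, and limma-voom 5 and 1. The edgeR count depended on single libraries. It was 0 higher and 0 lower without control 1, 1 and 0 without control 2, 3 and 0 without control 3, and 3 and 0 without FTO siRNA 1. It was 6 and 2 without FTO siRNA 2, and 15 and 8 without FTO siRNA 3.

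Partners of the pumps did not pass the test by edgeR. Nearest to it were TMEM64, from 27.1 ± 2.94 to 18.4 ± 1.92 CPM, and HAX1, from 94.5 ± 4.68 to 138 ± 26.3 CPM (edgeR adjusted p = 0.0624 and 0.0697). BSG and NPTN, the glycoproteins that PMCA pumps need as subunits, had 740 ± 10.7 and 226 ± 12 CPM in the controls and 975 ± 160 and 249 ± 70.8 CPM after FTO siRNA (edgeR adjusted p = 0.195 and 0.72). The calmodulin genes CALM2 and CALM3 had log2 fold changes of 0.19 and -0.15 (adjusted p = 0.463 and 0.595). Of the small inhibitors of SERCA, PLN, SLN and MRLN had at most 2 counts over a group. C4orf3 (another-regulin) went from 34.2 ± 0.27 to 39.5 ± 2.81 CPM (adjusted p = 0.354) and SMIM6 (endoregulin) from 1.21 ± 0.373 to 1.86 ± 0.495 CPM (adjusted p = 0.297). Of 10 members tested edgeR called 0, with 1 higher and 1 lower at an unadjusted p below 0.05, DESeq2 called 1 higher and 1 lower, and limma-voom called 0. Over this list the median log2 fold change was 0.20.

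Channels that release calcium from stores gave 0 calls of 10 by edgeR, DESeq2 and limma-voom, with 1 higher and 3 lower at an unadjusted p below 0.05 in edgeR. The IP3 receptors ITPR1, ITPR2 and ITPR3 had log2 fold changes of 0.13, -0.54 and 0.29 (adjusted p = 0.791, 0.136 and 0.391). TPCN1, a channel of endosomes and lysosomes, had 129 ± 11.5 and 136 ± 32.9 CPM, and ERLIN1, which takes part in the breakdown of IP3 receptors, 127 ± 7.06 and 98.9 ± 11 CPM (adjusted p = 0.134). The list's median was 0.04.

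Of 9 tested genes of store-operated calcium entry, 1 rose and 0 fell in mRNA, where 7.53% and 3.83% of all genes did. ORAI2, a channel subunit of store-operated entry, had 26.1, 23.0 and 33.8 CPM in the controls and 58.8, 56.0 and 61.7 CPM after FTO siRNA. The groups were far apart, and the gene rose by 1.09 ± 0.17 on the log2 scale (adjusted p = 0.00835 by edgeR). Without control 1 or control 2 it did not pass (adjusted p of at most 0.0613), and 2% of its words occur in other genes. ORAI1, the main channel subunit, had 25.5 ± 2.9 and 38.7 ± 12.1 CPM (adjusted p = 0.145), and the store sensors STIM1 and STIM2 had log2 fold changes of 0.22 and -0.25 (adjusted p = 0.344 and 0.276). ESYT1 and SARAF, the members with the highest counts, had adjusted p-values of 0.946 and 0.549. The median of the 9 was 0.22.

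Of the exchangers, 3 of 10 had enough counts and 2 of them rose (7.53% of all genes did), of which 1 is described. SLC8B1, which carries calcium out of mitochondria in exchange for sodium or lithium, went from 19.4 ± 3.16 to 34.5 ± 3.92 CPM (edgeR adjusted p = 0.0224). The plasma membrane sodium-calcium exchangers SLC8A1, SLC8A2 and SLC8A3, which share the work of the PMCA pumps in heart and nerve, had 1, 2 and 2 counts summed over controls and 9, 10 and 4 after FTO siRNA, too few to be tested. SLC8B1 lost its call with the replicate number as a block and without control 1, control 2, control 3 or FTO siRNA 1 (adjusted p of at most 0.122).

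Mitochondrial calcium uptake gave 0 calls of 11 by edgeR, DESeq2 and limma-voom, with 1 higher and 1 lower at an unadjusted p below 0.05 in edgeR. The uniporter MCU had 75.05 ± 7.33 and 87.4 ± 3.17 CPM (adjusted p = 0.326). VDAC1, VDAC2 and VDAC3, channels of the outer membrane, had log2 fold changes of -0.15, 0.30 and -0.31 (adjusted p = 0.756, 0.307 and 0.514), and 19.9%, 45.6% and 3.6% of their words occur in other genes. The 11 genes had a median of 0.01.

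Among 14 calcium-binding proteins of the lumen 1 rose, where 7.53% of all genes did. RCN1, a reticulocalbin of the endoplasmic reticulum, had 64.0, 61.2 and 69.2 CPM in the controls and 187, 138 and 290 CPM after FTO siRNA. It was at least 138 CPM in each FTO siRNA library and rose by 1.66 ± 0.26 (adjusted p = 0.00726 by edgeR), although 18.5% of its words are found in other genes. Without control 1 it did not pass (adjusted p = 0.0507). The genes that share the spaced promoter motif with ATP2A2 did not pass: CALR, HSP90B1, HSPA5, CANX and PDIA6 had log2 fold changes of 0.04 ± 0.22, -0.21 ± 0.20, -0.05 ± 0.18, -0.09 ± 0.18 and -0.06 ± 0.13, next to -0.13 ± 0.16 for ATP2A2. Their median, over all 14, was -0.02.

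Of 15 calcium-dependent enzymes and their targets 2 rose and 1 fell, where 7.53% and 3.83% of all genes did. CAMK2D, a calmodulin-dependent kinase, fell from 134 ± 14.4 to 79.7 ± 13.1 CPM (edgeR adjusted p = 0.025). RCAN2, an inhibitor of the phosphatase calcineurin, rose from 0.677 ± 0.12 to 1.91 ± 0.128 CPM (adjusted p = 0.0184). NFATC1, a transcription factor that calcineurin activates, rose from 0.512 ± 0.21 to 2.29 ± 1.42 CPM (adjusted p = 0.0421), with 3.83 CPM in FTO siRNA 3. RCAN2 and NFATC1 passed the count filter only through the FTO siRNA libraries. They could enter the test only as higher genes, so the count of 2 that rose is a description. NFAT5 had 139 ± 14.9 and 96.1 ± 62.3 CPM (adjusted p = 0.459). RCAN1, an NFAT target, had 69.2 ± 16.3 and 73.9 ± 5.09 CPM (adjusted p = 0.787). The calls of all 3 genes were lost without control 1, control 2, control 3 or FTO siRNA 1, with an adjusted p of at most 0.161. That of NFATC1 was also lost with library totals alone and with limma-voom, and that of RCAN2 with the replicate number as a block. The list's median was -0.10.

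**Figure D4:**
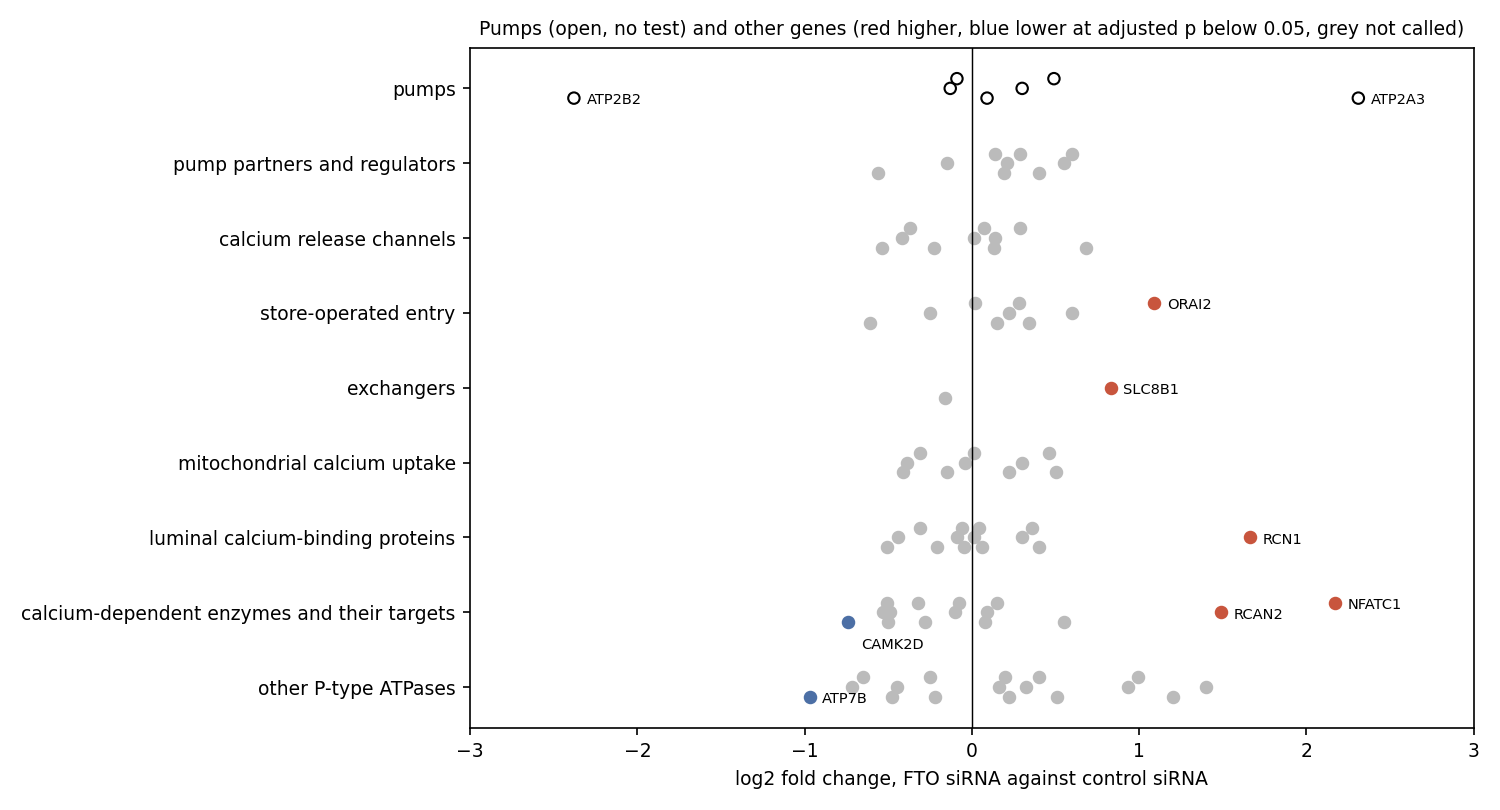
Log2 fold change, FTO siRNA against control siRNA, of tested genes by list, with 1 point per gene and 4 counted genes not drawn: open circles for the pumps (no test), red and blue for genes called higher and lower by edgeR at an adjusted p below 0.05, grey for the rest. Among the pumps ATP2B2 at -2.38 and ATP2A3 at 2.31 lie farthest from 0, and 5 lie between -0.13 and 0.49.

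Other P-type ATPases share the fold of the calcium pumps and carry sodium, copper, lipids or polyamines. Their list also held beta subunits of sodium-potassium pumps, which are not P-type ATPases themselves. The subunits ATP1B1, ATP1B2 and ATP1B3 had log2 fold changes of 0.93, 0.99 and 0.40. With them the list had 18 tested members, of which 0 rose and 1 fell by edgeR, where 7.53% and 3.83% of all genes did. At an unadjusted p below 0.05 these were 4 and 3, with DESeq2 2 and 2 and with limma-voom 0 and 1. ATP7B, the copper pump of liver cells that loads ceruloplasmin, had 81.4, 86.8 and 82.8 CPM in the controls and 38.4, 47.3 and 42.3 CPM after FTO siRNA. Every FTO siRNA library was well under the controls, and the gene fell by 0.97 on the log2 scale with a standard error of 0.14 (adjusted p = 0.00563). This call was kept in all 13 alternatives, with an adjusted p of at most 0.0443. ATP1B1, a beta subunit of sodium-potassium pumps, had 253 ± 20.6 and 480 ± 206 CPM (adjusted p = 0.0651). Over the 18 the median was 0.18.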

How the data were processed

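Total RNA of 6 HepG2 samples was sequenced, 3 after control siRNA and 3 after FTO siRNA. The authors deposited raw counts per Ensembl gene, 1 table per library. Per the submitters' processing notes the tools were TopHat2 2.0.11, TopHat and HTSeq and the builds GRCh37 and hg19, with no role or order. Counting settings: not given in the sources used here. Of 60483 identifiers 56753 matched GENCODE 29, used for symbols, types and exon lengths, and 37168 of them matched with the version. GENCODE 29 is on another build than those named in the notes, and which build the counted annotation used is unsure. Coordinates are therefore given only for RefSeq promoters (GRCh38.p14). From the counts, edgeR 4.0.16 in R 4.3.3 (filterByExpr, TMM, glmQLFit with legacy=FALSE, glmQLFTest, intercept and group, two-sided) tested 15025 genes, with Benjamini-Hochberg adjustment at 0.05. Standard errors of edgeR log2 differences were taken as |difference| / √F.

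CPM is TMM-scaled. On simulated counts for this comparison over 15025 genes with 200 changed, the share called was 8.96% at a 1.5-fold change, 46.3% at 2-fold and 90.9% at 4-fold. The pumps and lists were chosen with earlier results of these data known. The naming rule took FTO, the pumps, up to 4 called genes with the smallest p-values and the 2 highest genes of each list, and 3 genes nearest in profile to each of 2 pumps. Some genes that this rule names are not reported here. Other named genes were added for their role or their values after these were seen. STRIT1 and IRAG1 were matched by older symbols, and EFCAB4B was not matched. Alternatives were RLE factors, library totals alone, no filter, 1 CPM in 3 libraries, DESeq2 1.42.0, limma-voom (limma 3.58.1), a replicate block, and each library left out.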

Additional observations from a re-analysis of the deposited data

How the results depend on the processing

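Over all genes, 1132 were called higher and 575 lower. These counts stayed within 1.5 times of that with RLE factors, library totals alone, either filter and limma-voom, and DESeq2 gave 1029 lower genes and 3 lower calcium genes in place of 1. With the replicate number as a block 736 were higher and 305 lower. Deviations of same-numbered libraries from their group mean correlated at -0.138, -0.064 and -0.248 across genes, and those of other pairs at -0.102 to 0.207. With deviations from a mean of 3 libraries these values depend on each other. They cannot tell whether the numbers pair the samples. Leaving out each library gave 236 to 2430 higher and 94 to 2152 lower genes, with 0 to 15 calcium genes higher and 0 to 8 lower, the lowest without control 1 and the highest without FTO siRNA 3. With 1 library left out the group of 2 is assumed to vary like the other. Over the 13 alternatives the difference of ATP2B2 ranged from -2.93 to -2.03 and that of ATP2A3 from 1.53 to 2.65. At this depth ATP2B3 and ATP2C2 allow no comparison.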
